A study of Mus musculus with 8 samples.

Results

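Axon guidance ligands and receptors were followed in whole-brain bulk RNA-seq of the mouse as a set of 57 genes among 24343 in the deposited table. The set was fixed by gene symbol and comprised 8 ephrins and 14 Eph receptors, 3 Slits and 3 Robos, 2 netrins with the receptor Dcc and 4 Unc5 receptors, and 11 semaphorins with 9 plexins and 2 neuropilins. All 57 symbols were found. Whole brains came from 3 C57BL/6NCrl mice of 56 to 62 days, with no treatment, transgene or second genotype, so that no group served as a control. Mouse 1 gave 3 libraries, mouse 2 gave 3 and mouse 3 gave 2, and the labels do not say what separates libraries of the same mouse. SDs below are between the 3 mice, each taken as the mean of its libraries, and tests of mice against each other use the libraries as replicates and so describe these 3 animals only.

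Growing axons are steered by these molecules, some of which attract a growth cone and some of which repel it. Ephrins are bound to the cell surface, the A class by a lipid anchor and the B class by a transmembrane segment, and they signal through Eph receptor tyrosine kinases on the cells they touch. Slits and class 3 semaphorins are secreted, the former acting through Robo receptors and the latter mostly through a neuropilin paired with a plexin. The other semaphorins used here stay on the membrane and bind plexins directly, whereas netrins attract through Dcc and repel when an Unc5 receptor takes part. In the adult brain many of these genes remain in use at synapses, in glia and in vessels.

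Levels are given as FPKM, sequenced fragments assigned to a transcript and scaled to its length and to the size of the library, summed over the transcripts of a gene. Of the 57 genes, 54 had a mean of at least 1 FPKM, the level from which genes were tested. Their median was 5.18 FPKM, against 8.81 over all 13001 genes at or above that level. Of the members, 15 lay above the median of those genes and 0 among the highest 10%. In all, 2 members had at least 30 FPKM, 8 had 10 to 30, 19 had 5 to 10 and 25 had 1 to 5. Coverage multiplied by transcript length came to 1.31 to 2.02 gigabases per library (median 1.76), and the fragment counts themselves are unknown because the read length is not given. The confidence bounds in the table, which reflect uncertainty within 1 library, had a median half-width of 9.75% of the value over the 39 single-transcript members with at least 1 FPKM, with a range of 4.31% to 25.1%.

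**Figure D1:**
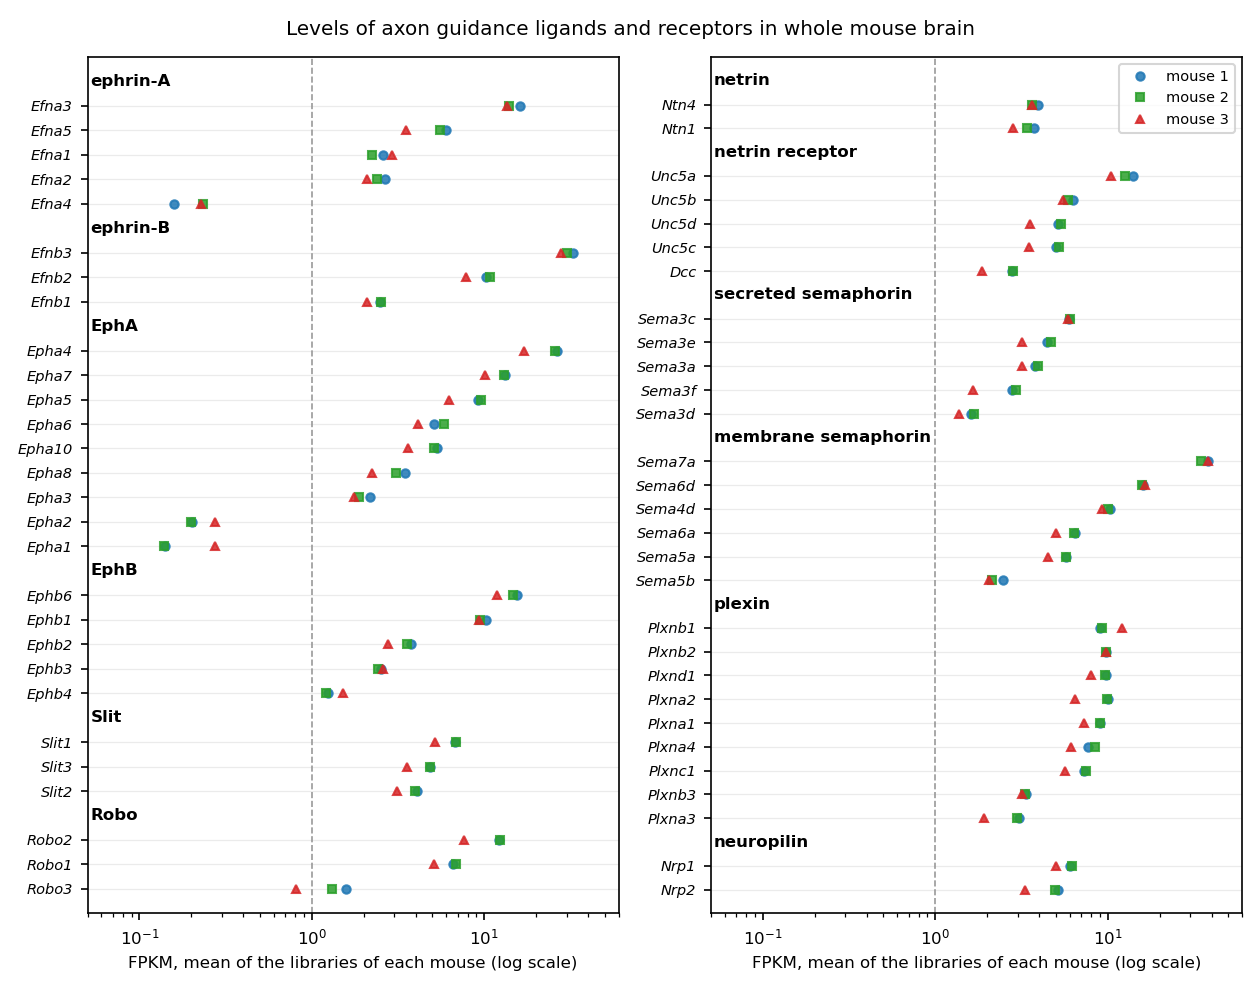
Level of each of the 57 genes in FPKM (log scale) by role, with 1 symbol for the mean of the libraries of each mouse. Sema7a and Efnb3 lie at 30 FPKM or above and Epha1, Epha2 and Efna4 lie left of the dashed line at 1 FPKM. The red triangles of mouse 3 are the leftmost symbol for most genes.

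Both extremes of the set were cell-surface proteins. Sema7a, a semaphorin held by a lipid anchor, was the highest member and lies at chr9:57940135-57962865 (mm10). It measured 37.6, 38.9 and 37.3 FPKM in mouse 1, 31.6, 35.3 and 37.6 in mouse 2 and 37.4 and 39.3 in mouse 3, a mean of 37.0 ± 1.91 (SD, n = 3 mice). Epha1, a receptor for A-class ephrins, was the lowest, with values from 0.0779 to 0.431 FPKM over the 8 libraries. For sequence context at both ends of the range, the 250 bases before the start of the 2 highest and the 2 lowest members with an annotated promoter near their start are shown from RefSeq (GRCm38.p6), 5′ to 3′ on the strand of the gene, with CG pairs in capitals. The positions are chr9:57939862-57940111 (plus strand) for Sema7a, chr1:77515089-77515338 (minus) for Epha4, chr3:89338029-89338278 (minus) for Efna4 and chr6:42373269-42373518 (minus) for Epha1.
Sema7a: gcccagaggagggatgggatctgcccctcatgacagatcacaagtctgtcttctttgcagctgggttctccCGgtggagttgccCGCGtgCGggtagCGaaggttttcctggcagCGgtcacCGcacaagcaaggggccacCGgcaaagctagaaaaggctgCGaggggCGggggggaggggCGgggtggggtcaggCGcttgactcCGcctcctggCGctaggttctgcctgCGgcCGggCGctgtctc
Epha4: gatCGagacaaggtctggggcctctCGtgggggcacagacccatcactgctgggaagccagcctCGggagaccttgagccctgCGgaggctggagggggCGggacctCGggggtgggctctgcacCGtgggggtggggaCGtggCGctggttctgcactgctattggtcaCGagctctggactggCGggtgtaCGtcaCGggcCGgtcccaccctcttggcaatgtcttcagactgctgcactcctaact
Efna4: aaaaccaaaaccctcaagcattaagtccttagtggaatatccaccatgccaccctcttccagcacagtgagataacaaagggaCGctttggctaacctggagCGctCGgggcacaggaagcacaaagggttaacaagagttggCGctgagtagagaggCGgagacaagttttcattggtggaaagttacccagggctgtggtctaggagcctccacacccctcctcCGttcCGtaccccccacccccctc
Epha1: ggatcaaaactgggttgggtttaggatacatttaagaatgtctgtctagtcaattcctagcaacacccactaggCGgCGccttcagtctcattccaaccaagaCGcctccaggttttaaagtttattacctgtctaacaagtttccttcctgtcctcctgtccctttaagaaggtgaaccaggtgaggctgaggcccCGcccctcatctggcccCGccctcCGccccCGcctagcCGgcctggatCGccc
The windows of Sema7a and Epha4 held 17 and 14 CG pairs and 66.4% and 66.0% G or C, and those of Efna4 and Epha1 held 7 and 9 CG pairs and 54.4% each. Promoters of 48 members were in the RefSeq table and 43 started within 100 bases of the transcript with the highest FPKM. Over those 43 the median was 17 CG pairs with a range of 3 to 46, and over all 32851 promoters in the table it was 6. The letters TATAAA, searched on both strands, were found in 1 of the 43 windows (2.33%) and in 12.4% of all windows. GGGCGG was found on either strand in 32 (74.4%), and in 32.7% of all. The windows of all promoters were not limited by distance to a transcript or by level, so these sets are not matched. Among member windows dropped by distance, CG pairs ran from 1 (Sema4d) to 27 (Efnb2), and that of Efnb2 held TATAAA. The 10 highest of the 43 had a median of 19.5 CG pairs and the 10 lowest a median of 12.

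Among the ephrins, Efnb3 and Efna3 carried most of the transcript. Efnb3, a ligand at the midline that keeps corticospinal axons on their side, lies at chr11:69554092-69560237. It measured 32.3, 31.5 and 34.2 FPKM in mouse 1, 28.6, 30.0 and 32.2 in mouse 2 and 29.5 and 26.3 in mouse 3 (30.3 ± 2.38, SD, n = 3). Efna3 followed with 15.4, 17.1 and 16.2, then 15.4, 13.6 and 12.9, and then 14.7 and 12.5 (14.6 ± 1.41). Together they made up 67.0% ± 1.97 of all ephrin FPKM, with 45.2% ± 1.03 from Efnb3 alone. Efnb2, known for artery formation as well as guidance, was the third at 9.62 ± 1.62. Efna5, a ligand of topographic mapping, was at 5.0 ± 1.31, and Efna1, Efna2 and Efnb1 lay between 2.36 and 2.58. Efna1 and Efna2 were in the same order in 3 of 8 libraries and so were not separated, whereas Efnb3, Efnb2 and Efnb1 kept their order in all 8.

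Efna4 was at the detection limit. Its values were 0.165, 0.0494 and 0.260 FPKM in mouse 1, 0.452, 0 and 0.245 in mouse 2 and 0.155 and 0.302 in mouse 3, and its lower confidence bound was 0 in 4 libraries. No mouse stood apart from another at this level. By GENCODE M21, 10.5% of its exon bases are shared with 4731419I09Rik and 14.1% of those of Efna3 with Gm15998, both annotated as antisense, and since the strand setting of the estimation is not given, reads of either partner cannot be told apart there.

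Epha4 led the Eph receptors. It binds ephrins of both classes, is needed for the corticospinal tract to stay on its side, and lies at chr1:77367185-77515088. Its libraries gave 25.9, 26.3 and 26.7 FPKM in mouse 1, 25.1, 26.1 and 26.1 in mouse 2 and 19.2 and 14.7 in mouse 3 (23.0 ± 5.27). It made up 25.6% ± 2.20 of the FPKM of the 14 receptors. Ephb6 (13.9 ± 1.88) and Epha7 (12.0 ± 1.75) came next, then Ephb1 (9.65 ± 0.481) and Epha5 (8.34 ± 1.83).

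The first of those, Ephb6, is 1 of the 2 mammalian Eph receptors without kinase activity, and the other, Epha10, measured 4.68 ± 0.952. Jointly they held 21.1%, 20.6% and 21% of Eph receptor FPKM in mice 1 to 3. That share had an SD of 0.273 percentage points between the mice. In the limma test of the mice described below, Epha10 was called (limma adjusted p = 0.0173) and Ephb6 was not (limma adjusted p = 0.111). Epha6 and Epha10 were in the same order in 7 of 8 libraries, and the other neighbours in the EphA order down to Epha2 in all 8. Within the EphB receptors, the order Ephb6, Ephb1, Ephb2, Ephb3, Ephb4 was the same in all 8 libraries, with Ephb2 at 3.37 ± 0.527, Ephb3 at 2.50 ± 0.0816 and Ephb4 at 1.32 ± 0.175.

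Epha1 and Epha2, receptors best known from epithelia, were near the floor. Epha1 measured 0.147, 0.199 and 0.0779 FPKM in mouse 1, 0.144, 0.120 and 0.154 in mouse 2 and 0.116 and 0.431 in mouse 3. Epha2 measured 0.221, 0.163 and 0.224, then 0.165, 0.216 and 0.217, and then 0.343 and 0.205. The highest value of either gene came from a single library of mouse 3, while its other library lay among those of the other mice. The confidence bounds of Epha1 had a median half-width of 93.1% of its value, and 6.01% of its exon bases are shared with Zyx on the other strand.

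Slits and Robos were of similar abundance. Slit1 was at 6.29 ± 0.940 FPKM, Slit3 at 4.43 ± 0.733 and Slit2 at 3.72 ± 0.531, with Slit3 and Slit2 in this order in 7 of 8 libraries. Robo2 was the main receptor at 10.7 ± 2.65, Robo1 was at 6.21 ± 0.938 and Robo3, known for letting commissural axons reach the midline, was at 1.23 ± 0.391. Robo2 supplied 58.7% ± 2.13 of Robo FPKM, and the order of the 3 receptors was the same in all 8 libraries.

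In the netrin system the 5 receptors together far exceeded the 2 ligands. Ntn4, a netrin of basement membranes, was at 3.74 ± 0.152 FPKM and Ntn1, the classical attractive cue, at 3.31 ± 0.448, an order held in 6 of 8 libraries. Unc5a was the highest receptor, with 13.6, 13.7 and 14.4 in mouse 1, 12.2, 12.5 and 13.2 in mouse 2 and 11.3 and 9.53 in mouse 3 (12.3 ± 1.79). Unc5b was at 5.90 ± 0.387, Unc5d at 4.68 ± 0.981 and Unc5c at 4.56 ± 0.942, the last of which were in this order in 4 of 8 libraries. Dcc, the receptor of netrin attraction, was the lowest at 2.48 ± 0.541, or 8.22% ± 0.678 of the summed receptors.

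Of the 11 semaphorins in the set, the membrane-bound ones outweighed the secreted ones. After Sema7a came Sema6d, which acts through plexin-A1, with 16.5, 15.8 and 16.0 FPKM in mouse 1, 15.6, 15.6 and 16.0 in mouse 2 and 17.5 and 15.2 in mouse 3 (16.1 ± 0.314). Sema4d, a ligand of plexin-B1 that oligodendrocytes make, was at 9.84 ± 0.569. These 3 genes held 66.9% ± 3.13 of the summed FPKM of the 11. Sema6a (5.94 ± 0.798) and Sema5a (5.34 ± 0.712) were in this order in 7 of 8 libraries, and Sema5b was at 2.22 ± 0.217. Of the secreted class 3 members, Sema3c was the highest at 5.97 ± 0.0631, followed by Sema3e (4.10 ± 0.815), Sema3a (3.65 ± 0.410), Sema3f (2.46 ± 0.697) and Sema3d (1.55 ± 0.161). Sema3c was even over the mice, with libraries from 5.49 to 6.37 FPKM.

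Plexins formed a plateau rather than a ranking. The 6 highest lay between 7.43 and 10.1 FPKM, namely Plxnb1 (10.1 ± 1.74), Plxnb2 (9.75 ± 0.0438, with libraries from 7.81 to 11.6), Plxnd1 (9.13 ± 1.01), Plxna2 (8.80 ± 2.01), Plxna1 (8.4 ± 0.994) and Plxna4 (7.43 ± 1.18), and none of the neighbours among them kept its order in all 8 libraries. Plxnc1, the receptor of Sema7a, was at 6.82 ± 1.02, and Plxnb3 and Plxna3 closed the order at 3.29 ± 0.106 and 2.64 ± 0.636. The neuropilins, co-receptors of class 3 semaphorins, were at 5.77 ± 0.659 for Nrp1 and 4.46 ± 0.992 for Nrp2. Plexins supplied 86.7% ± 1.02 of the joint FPKM of plexins and neuropilins.

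Pairs that bind each other were compared for a few examples only, and not all of these were matched in level. Sema7a stood at 37.0 FPKM and its receptor Plxnc1 at 6.82, whereas Sema3e stood at 4.10 and its receptor Plxnd1 at 9.13. Sema4d (9.84) and Plxnb1 (10.1) were close. Across the neighbours within all roles, 31 of 45 pairs kept the same order in all 8 libraries.

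The sums of ligands and receptors within each family were then compared. Ephrins summed to 73.0, 68.0 and 60.1 FPKM in mice 1 to 3 and Eph receptors to 98.2, 95.8 and 73.5. The receptors were higher in all 8 libraries, by 1.32-fold on average, with a log2 ratio of ligands to receptors of −0.40 ± 0.105 (SD, n = 3) and a range of −0.54 to −0.25 over libraries. Slits summed to 15.7, 15.7 and 11.9 and Robos to 20.3, 20.6 and 13.6, a log2 ratio of −0.32 ± 0.109 with libraries from −0.65 to −0.04. Netrins summed to 7.63, 7.04 and 6.49 and their receptors to 33.1, 31.9 and 24.8, the widest gap of the 4 families at 4.22-fold (log2 ratio −2.08 ± 0.127). The sums run over unequal numbers of genes, 8 ephrins against 14 Eph receptors and 2 netrins against 5 receptors. Their folds depend on these numbers. The median member was at 3.79 FPKM for ephrins and 4.03 for Eph receptors, and at 3.53 for netrins and 4.68 for their receptors. For the 3 Slits and 3 Robos it was 4.43 and 6.21.

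Semaphorins were the exception, with 97.6, 94.1 and 90.8 FPKM against 80.1, 81.0 and 68.8 for plexins and neuropilins. Their log2 ratio was 0.30 ± 0.0934 and was above 0 in all 8 libraries, from 0.17 to 0.59. This direction changed with the scaling by length. Without division by length the ratio was −0.41, and with only the highest transcript of each gene it was 0.094. With 3 mice an exact test of any ratio against 0 cannot give a p below 0.25, so none was run. The semaphorin sum holds only the 11 of the set, and others, such as Sema6b at 18.8 ± 1.28 FPKM, are not counted in it. The ratio therefore depends on which semaphorins the set includes. Over all families the 24 ligands of the set summed to 183 ± 12.5 FPKM and the 33 receptors to 214 ± 28.8.

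**Figure D2:**
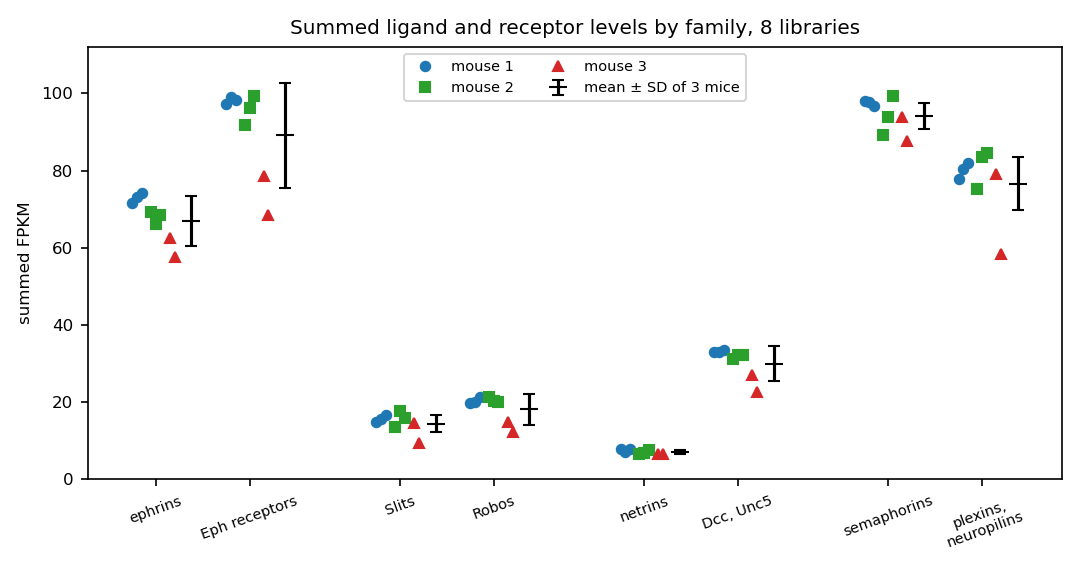
Summed FPKM of the ligands and of the receptors of each family, with 1 symbol per library and black bars for the mean ± SD of the 3 mice. Receptors lie above ligands for ephrins, Slits and netrins and below them for semaphorins, and the lowest symbol of each sum is a library of mouse 3.

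Ratios within a side completed the comparison. The sum of 3 B-class ephrins exceeded that of 5 A-class ones 1.71-fold (log2 ratio of A to B −0.77 ± 0.0610). That of 9 EphA receptors exceeded that of 5 EphB receptors 1.88-fold (log2 ratio 0.91 ± 0.187), with more genes on the EphA side. Median member levels were 4.68 FPKM for EphA and 3.37 for EphB, and 2.58 for ephrin-A and 9.62 for ephrin-B. The 6 membrane semaphorins of the set exceeded its 5 secreted ones 4.33-fold (log2 ratio of secreted to membrane −2.12 ± 0.176). For this last ratio the libraries of mouse 1 gave −2.07, −2.11 and −2.07, those of mouse 2 gave −1.87, −1.99 and −2.01 and those of mouse 3 gave −2.30 and −2.31. The 3 mice did not overlap in it, and mice 1 and 2 lay close. An exact permutation test of the F statistic over all 280 groupings of the libraries gave p = 0.00357, the smallest it can give, and 0.0250 after Benjamini-Hochberg adjustment over the 7 ratios. The other 6 ratios had exact permutation p-values of 0.0214 to 0.639 and adjusted values of 0.0750 to 0.639.

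Levels of many members were lower in mouse 3. On log2(FPKM + 1) values of all 13001 genes, tested by moderated F statistics in limma and adjusted by Benjamini and Hochberg, 18 of 54 members differed between the mice at an adjusted p under 0.05 (33.3%), beside 26.9% of all genes tested. All 18 were lowest in mouse 3, a direction that 11.8% of all genes took with a call. Mouse 3 had the lowest mean for 46 of the 54 members (85.2%), and for 42.4% of all genes. The median log2 difference of mouse 3 from the mean of mice 1 and 2 was −0.30 over the members and 0.02 over all genes.

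Transcript length moved with this difference. Members had a median transcript length of 5489 nucleotides against 2847 over all genes tested, and 35 of the 54 belonged to the 20% of all genes with the longest transcripts, those of at least 4684 nucleotides. Among these the median log2 difference of mouse 3 was −0.21, the share called with mouse 3 lowest was 26.5% and mouse 3 was lowest for 74.9% of genes. Among the 20% with the shortest transcripts the median difference was 0.41 and the share called with mouse 3 lowest 1.58%. Both libraries of mouse 3 lay below all 6 others for 26 members (48.1%), beside 21.7% of all genes and 47.7% of the 20% with the longest transcripts. With a smooth trend with length removed from each library, 10 members were called, 9 of them lowest in mouse 3, beside 22.0% of all genes. The median difference of the members was then −0.13.

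**Figure D3:**
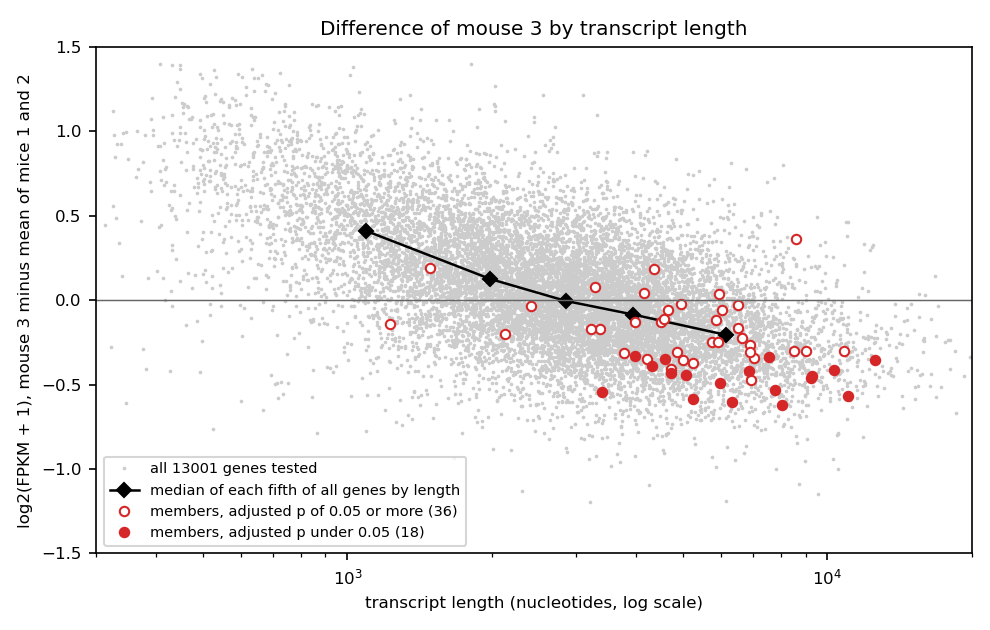
Log2 difference of mouse 3 from the mean of mice 1 and 2 for each gene tested (grey) against transcript length in nucleotides (log scale), with medians over each 20% of the genes by length (black) and the 54 members in red, filled where the adjusted p was under 0.05. The medians fall from 0.41 to −0.21 with length and most members lie below 0, and 85 genes fall outside the axes.

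The call also depended on 1 library. Without library 2 of mouse 3, only Epha4 was called among the members, beside 2.86% of all genes, and without mouse 3 the limma test called 0 members, with 2 at an unadjusted p under 0.05, beside 0.0232% of all genes called. Leaving out library 1 of mouse 3 instead gave 25 members, beside 30.2% of all genes. Without library 1, 2 or 3 of mouse 1 the counts were 10, 9 and 9, beside 17%, 16.0% and 15.2% of all genes, and without library 2 of mouse 2 the count was 11, beside 20.4%. When the values were rescaled to a common total per library (TPM), the median log2 difference of all genes in mouse 3 moved to −0.24 and 39 members were called, all lowest in mouse 3, beside 38.3% of all genes, with 85% of called genes lowest in mouse 3 as against 43.8% without rescaling.

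Some marker lists of cell types and regions differed in mouse 3 as well. Summed FPKM of 4 oligodendrocyte markers lay between 1937 and 2141 in the libraries of mice 1 and 2 and was 3803 and 4725 in mouse 3, with 2 of the 4 called higher there. For 4 astrocyte markers the sum went from 264 to 286 to 415 and 440, with 4 of 4 called higher. Neuronal markers summed to 1498 to 1621 in mice 1 and 2 and to 1293 and 1408 in mouse 3, with 2 of 4 called lower, and those of cortex and hippocampus to 267 to 319 and to 258 and 239, with 3 of 4 called lower. Blood markers summed to 444 to 621 and to 691 and 852, with 1 of 4 called, beside 26.9% of all genes. Of the 3 markers of oligodendrocyte precursors, 4 of endothelium and 4 of microglia, 1 was called, Cx3cr1 of microglia, which was higher in mouse 3. The endothelial sum lay between 23.0 and 30.6 in mice 1 and 2 and was 37.1 and 38.6 in mouse 3. Cerebellar markers, with 0 of 4 called, summed to 189 to 223 in mice 1 and 2 and to 225 and 334 in mouse 3. Lists of striatum, of olfactory bulb, and of thalamus, midbrain and hindbrain had 1 of 4 called each. No marker of these lists was at 0, and their part in the members' result was not tested. In bulk samples, fewer cells of a type and less RNA per cell cannot be told apart. Markers of liver and skeletal muscle, which brain should lack, summed to at most 2.70 and 12.6 FPKM.

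Receptors made up most of the members called. Among them 14 of 31 tested were called, and 4 of 23 ligands, beside 26.9% of all genes and 30.5% of the 20% with the longest transcripts, and the difference between the sides was not tested. By role, 3 of 3 Robos, 4 of 5 netrin receptors, 4 of 7 EphA receptors, 2 of 9 plexins and 1 of 2 neuropilins were called, and 0 of 5 EphB receptors. Of the ligands, 2 of 7 ephrins and 2 of 5 class 3 semaphorins were called, and 0 of 6 membrane semaphorins, 0 of 3 Slits and 0 of 2 netrins. Median transcript length over the members of a role was 9220 nucleotides for netrin receptors, 7568 for Robos and 7045 for plexins. It was 6521 for class 3 semaphorins, 5943 for neuropilins, 5249 for membrane semaphorins and 5238 for Slits. EphA receptors had 4590, EphB receptors 4342, netrins 4074.5 and ephrins 2673. Of the 18 members called, 14 were among the 35 members in the 20% of genes with the longest transcripts. The relation of the counts by role to length was not tested.

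Robo2, at chr16:73892306-74410912, had the widest difference among the called members. Its values were 11.7, 11.9 and 12.6 FPKM in mouse 1, 13.2, 11.8 and 12.2 in mouse 2 and 8.50 and 6.78 in mouse 3, and mice 1 and 2 overlapped while both libraries of mouse 3 lay apart. The log2 difference of mouse 3 was −0.62 (limma adjusted p = 0.00708). Robo1 (−0.34, limma adjusted p = 0.0378) and Robo3 (−0.43, limma adjusted p = 0.0358) were called as well but not with the length trend removed.

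Epha4, with the values given above, had a log2 difference of −0.60 (limma adjusted p = 0.00799), and it was the 1 member called under all 22 alternatives that kept mouse 3. Its relatives Epha5, a partner of ephrin-A5 in mapping, and Epha10 followed. Epha5 measured 8.91, 9.4 and 9.37 in mouse 1, 10.2, 9.30 and 9.25 in mouse 2 and 7.06 and 5.41 in mouse 3 (−0.53, limma adjusted p = 0.0126). Epha10 measured 5.09, 5.46 and 5.48, then 5.16, 5.02 and 5.15, and then 4.0 and 3.18 (−0.45, limma adjusted p = 0.0173). In both genes every library of mouse 3 lay below every other library. Epha7 differed by −0.35 (limma adjusted p = 0.0183) and was not called once the length trend was removed.

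Efna5 was the ligand with the widest difference. It measured 5.78, 6.14 and 5.96 in mouse 1, 5.36, 5.12 and 6.15 in mouse 2 and 3.82 and 3.19 in mouse 3 (−0.58, limma adjusted p = 0.00811). Efnb2 differed by −0.39 (limma adjusted p = 0.0247) and was not called with the length trend removed, while Efnb3 and Efna3, the most abundant ephrins, differed by −0.17 and −0.14 and were not called.

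Of the netrin receptors, Unc5c measured 5.24, 4.96 and 4.79 in mouse 1, 5.19, 5.02 and 5.40 in mouse 2 and 3.77 and 3.19 in mouse 3 (−0.45, limma adjusted p = 0.0138). Unc5d measured 5.22, 4.84 and 5.32, then 5.34, 5.67 and 5.08, and then 4.06 and 3.06 (−0.46, limma adjusted p = 0.0235). Both were separate in mouse 3, and both lost the call without the length trend, as did Dcc (−0.41). Unc5a kept it (−0.33 in the unadjusted values, limma adjusted p = 0.0407 without the trend). Unc5b, at −0.12, was the netrin receptor not called.

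Among semaphorins and their receptors, Sema3f and its co-receptor Nrp2 were both called. Sema3f measured 2.73, 2.74 and 2.87 in mouse 1, 2.41, 3.02 and 3.39 in mouse 2 and 2.01 and 1.31 in mouse 3 (−0.55, limma adjusted p = 0.0352). Nrp2 measured 4.99, 4.96 and 5.47, then 4.94, 4.83 and 4.98, and then 3.83 and 2.81 (−0.49, limma adjusted p = 0.0201). The libraries of mouse 3 were the lowest for both. Plxna2 measured 10.1, 10.1 and 9.65, then 9.86, 9.89 and 10.1, and then 7.60 and 5.37 (−0.57, limma adjusted p = 0.0153). Sema3e (−0.42, limma adjusted p = 0.0252) and Plxna4 (−0.35, limma adjusted p = 0.0432) were called as well but not without the length trend.

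Plxnb1, the receptor of Sema4d, went the other way. It measured 9.04, 8.60 and 9.50 FPKM in mouse 1, 8.14, 9.67 and 9.88 in mouse 2 and 13.9 and 10.3 in mouse 3, so that both libraries of mouse 3 lay above all others. Its log2 difference of 0.36 was not called in the values as deposited (limma adjusted p = 0.0946) and was called with the length trend removed (limma adjusted p = 0.00347). The share of B-class plexins in plexin FPKM was 32.2% and 32% in mice 1 and 2 and 41.4% in mouse 3, and that of the A class was 43.0%, 43.5% and 36.1%. The smallest log2 differences of mouse 3 were those of Sema3c (−0.02), Plxnb2 (−0.03), Ephb3 (0.04), Sema6d (0.04) and Ntn4 (−0.04), and Sema7a stood at 0.08. The value of Plxnb2 averages 11.6 FPKM, above every other library, and 7.81, below every other, in the 2 libraries of mouse 3, so neither it nor the SD of Plxnb2 between mice shows the spread.

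Transcript choice was estimated for the 15 members with several annotated transcripts, where the division of reads between overlapping transcripts is less certain than the sum. In Epha7 the share of the shortest transcript was similar in all 8 libraries, whereas the split between the longer ones was not. Its transcript of 3272 nucleotides (NM_001122889) ends at chr4:28947453, encodes 610 residues and lacks the kinase part, and it made up 62.5% ± 1.85 of the FPKM of the gene, with a range of 59.6% to 67.8% over the 8 libraries. Both full-length transcripts, of 998 and 994 residues, end at chr4:28967503 and shared the rest at 24.7% ± 1.37 and 12.8% ± 0.864. Over the libraries the former ranged from 11.0% to 35.6% and the latter from 2.99% to 21.1%. These extremes came from the libraries of mouse 3, so the SDs between mice do not show this spread. The short form was therefore the larger part in every library.

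Nrp2 transcripts fall into groups by their last exon, which encodes the end of the protein inside the cell. Those that end at chr1:62797091 held 36.8% ± 1.83 and those that end at chr1:62818692 held 63.2%, with the former between 32.7% and 45.1% over the libraries. Each group was carried mainly by 1 transcript, of 4696 and 6724 nucleotides. Efna5 was supplied at 75.3% ± 2.46 by its transcript of 228 residues and at 24.7% by that of 201, and Sema4d at 69.1% ± 4.68 by a single transcript. Single libraries varied more than these SDs between mice, from 57.4% to 91.4% for the main Efna5 transcript and from 53.8% to 92.4% for that of Sema4d.

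Other genes were spread or unstable. Sema6d was divided over 7 transcripts, the highest of which held 27.4% ± 5.27. In Sema3a 2 transcripts that differ at their start held 49.4% ± 18.7 and 48.9% ± 21.6, with the former at 38.1% and 39.1% in mice 1 and 2 and 71.0% in mouse 3. The 2 transcripts of Ephb4 changed places between libraries, with shares from 0.00175% to 100% over both, so only their sum is used here. Epha10, Ephb1, Plxnb2 and Efna1 came at 95.9% to 99.1% from 1 transcript.

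**Figure D4:**
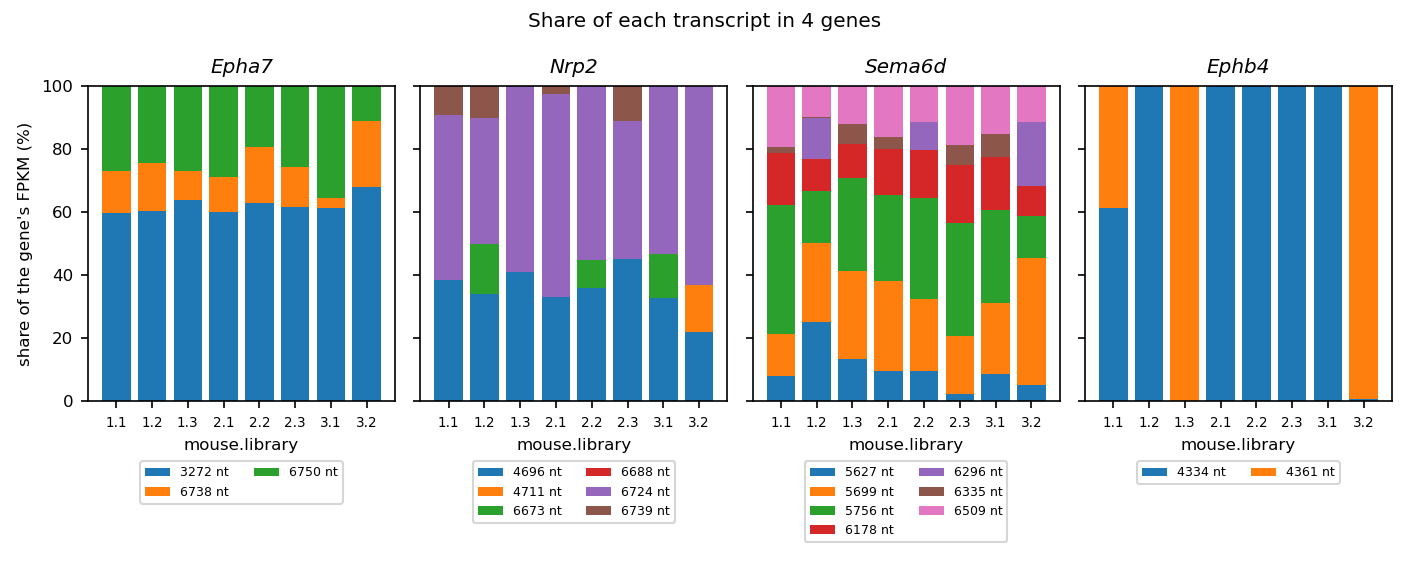
Share of each annotated transcript in the FPKM of its gene (%, stacked bars, coloured by transcript length in nucleotides) in each library, labelled by mouse and library number, for Epha7, Nrp2, Sema6d and Ephb4. The short Epha7 transcript (3272 nucleotides) holds 59.6% to 67.8% in each library, whereas the transcripts of Ephb4 change places between libraries.

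The rest of the guidance system was read from separate lists. Of 22 other guidance ligands and receptors, 20 were tested and 2 were called, Ntng1 and Flrt2, both lower in mouse 3 by 0.40 and 0.42 on the log2 scale, beside 26.9% of all genes. The highest was the membrane semaphorin Sema6b at 18.8 ± 1.28 FPKM and the lowest Draxin, a netrin-binding repellent, at 0.192 ± 0.0167. Of 34 effectors inside the growth cone, 34 were tested and 8 were called, 7 lowest and 1 highest in mouse 3. The highest was the actin-severing protein Cfl1 at 458 ± 17.3 FPKM and the lowest Farp2, a partner of plexin-A receptors, at 1.67 ± 0.133. Among those called lower in mouse 3 were Dpysl2 (−0.58), which carries semaphorin 3A signals to microtubules, the Rac activator Tiam1 (−0.54) and the actin oxidase Mical2 (−0.44). Nck1, an adaptor that couples Dcc and Ephs to actin, was the effector called higher (0.41).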

How the data were processed

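Total RNA of whole mouse brain was isolated by the study with an RNAqueous Micro kit, kept where its integrity score exceeded 8, and made into Kapa mRNA HyperPrep libraries for a NextSeq500 instrument. Per the labels and the submitters' processing notes, TopHat, Cufflinks and mm10 were used, with versions, strand setting and read length not given in the sources used here. The authors deposited FPKM with confidence bounds, and coverage as a signal in reads per base, for 34535 RefSeq transcripts in each of 8 libraries. Only 8 values of 2 genes had a failed status. Loci in the table start from 0, so 1 was added, and 99.3% of 23103 genes overlapped their RefSeq gene locus (all 57 members).

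FPKM was summed over the transcripts of a gene, averaged per mouse and then over mice. The 13001 genes whose mean reached 1 FPKM were tested on log2(FPKM + 1) with limma 3.58.1 in R 4.3.3 (moderated F-test between the mice, spread trended on level, Benjamini-Hochberg adjustment, threshold 0.05). A fold change on this scale understates that of low genes. Ratios were compared by exact permutation over 280 groupings of libraries. No counting interval could be computed, since the files hold no counts. The limma test was checked on simulated data in which 200 of 13001 genes were shifted in mouse 3. It recovered 95.5% of them at a log2 difference of 1 and 19% at 0.5. In the data 26.9% of all genes were called, so the adjusted threshold falls elsewhere and these shares do not give the recovery among the members. A member that was not called may still differ. Plxna3, for example, had a log2 difference of −0.47 without a call (limma adjusted p = 0.0584).

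Named in full were the 3 highest members of each role, those under 1 FPKM and up to 12 called members with the widest range of mouse means. Of the other lists, the highest, the lowest and up to 4 called genes with the widest range were named (1 of them is not reported here), and Nck1 and Cx3cr1 were added after their values were seen, as were the members with the smallest differences. The members and lists were chosen with earlier results of these data known. Alternatives were the highest transcript of a gene, TPM, another library scaling, pseudocounts of 0.1 and 0.5, no minimum level or 5 FPKM, quantile normalization, removal of a length trend (lowess, span 0.3), no division by length, a replicate block, and leaving out each library or mouse.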

Additional observations from a re-analysis of the deposited data

Results flagged for a closer look

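A library stood apart from the other 7 by Dixon's criterion for 8 values (the gap to the nearest other library over the whole range) in 11 of 64 measures, where chance alone flags about 1 in 20 per measure. Library 2 of mouse 3 was the one apart in 9 of them and library 1 of mouse 3 in the other 2. Measures of the same library share that library, so these are not independent of each other.

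In library 2 of mouse 3, Slit1 was lowest at 3.76 FPKM with the nearest other library at 6.13, Slit2 at 2.61 (nearest 3.61), Plxna1 at 5.65 (nearest 8.02), Plxna4 at 5.27 (nearest 7.03), Plxnd1 at 6.87 (nearest 8.98) and Sema5a at 3.77 (nearest 5.05). Epha1 was highest there at 0.431 FPKM with the nearest at 0.199. The log2 ratio of netrins to their receptors was highest in the same library at −1.80 (nearest −2.06), as was that of semaphorins to plexins and neuropilins at 0.59 (nearest 0.33).

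In library 1 of mouse 3, Epha2 was highest at 0.343 FPKM (nearest 0.224) and Plxnb1 at 13.9 FPKM (nearest 10.3, the other library of mouse 3). The cause of these gaps was not tested.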

How the results depend on the processing

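The number of members with at least 1 FPKM stayed at 54 under 16 of 17 alternatives (50 at a minimum of 2 FPKM), and 778 of 798 member levels moved by less than 1 SD. The 18 members that differed between the mice became 39 with TPM, 10 at a minimum of 5 FPKM (fewer genes tested), 10 with the length trend removed, 8 without mouse 1 and 0 without mouse 3 by limma (2 at an unadjusted p under 0.05), and lay between 1 and 25 when single libraries were left out. The 3496 genes called of all tested became 5653 with TPM, 2055 without mouse 1 and 3 without mouse 3 (556 at an unadjusted p under 0.05), and lay between 372 and 4131 when single libraries were left out.

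Libraries of different mice share replicate numbers, and the correlations of same-numbered libraries' deviations ranged from 0.00276 to 0.107. Those of differently numbered libraries ranged from −0.135 to 0.0645. The labels do not say what the number stands for, so whether same-numbered libraries share more than that number is not known. With a replicate block on that number, 13 members and 3385 genes were called, and with the replicate block and the length trend removed 5 members and 2207 genes.

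Without division by length the log2 ratios were −1.20 for ephrins to Eph receptors, −0.67 for Slits to Robos, −2.79 for netrins, −0.41 for semaphorins (a reversed direction), −1.47 for ephrin-A to ephrin-B, 1.34 for EphA to EphB and −1.89 for secreted to membrane semaphorins. With only the highest transcript they were −0.52 for Slits, 0.094 for semaphorins, −0.85 for ephrin-A to ephrin-B and −1.94 for secreted to membrane semaphorins. The median share of the highest transcript over the members with several, 75.3%, ranged from 72.9% to 84.6% without single libraries.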
